A study of Homo sapiens with 12 samples.

Results

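Untreated K1 cells were compared with untreated TPC1 and BCPAP cells, which are also human cell lines grown from papillary thyroid cancers. The comparison rested on the 6 arrays of untreated cells among the 12 of the series, with 2 arrays each of K1, TPC1 and BCPAP. The other 6 arrays held the same lines after 24 hours with 10 µM Y15, a small molecule inhibitor of the focal adhesion kinase FAK. Equal numbers of cells had been plated and were collected with trypsin, and total RNA was measured on Illumina bead arrays. By the study's account K1 and BCPAP share a BRAF mutation and carry different p53 mutations, K1 also has a PIK3CA mutation, and TPC1 carries the RET/PTC1 rearrangement. With 1 line for each background, no mutation can be set against another. K1 was grown in a mixed medium based on DMEM and the other lines in RPMI, so the line and its medium cannot be told apart. The arrays of a line are given as duplicates with no statement of separate cultures, so the p-values reflect only how far these samples spread, which may be technical. In pooled RNA, fewer cells that express a gene and less RNA per cell cannot be told apart.
Papillary thyroid cancers arise from the follicular cells of the thyroid. PAX8, FOXE1, HHEX and NKX2-1 are the transcription factors that define these cells, and thyroglobulin (TG) and the TSH receptor (TSHR) are among their products. Cancer cells can also secrete interleukins and chemokines, small proteins that act on neighbouring and immune cells. Interleukin 1 cytokines act upstream of NF-kB, a transcription factor of inflammation that binds many cytokine promoters.
Of the 6 follicular cell markers with a probe, K1 had 3 above background. PAX8 had a log2 signal of 11.60 and 11.69 in K1, 11.52 and 11.55 in TPC1, and 9.48 and 9.38 in BCPAP. FOXE1 and HHEX averaged 7.65 and 6.97 in K1, whereas TG, TSHR and NKX2-1 were above background on neither K1 array. The epithelial keratin KRT8 averaged 10.19 in K1, 10.49 in TPC1 and 10.67 in BCPAP, and the epithelial cadherin CDH1 was above background on no untreated array. Of 7 leukocyte markers CD14, CD68 and ITGB2 were above background on both arrays of every line, at means of 9.42, 9.06 and 7.41 in K1, whereas PTPRC, which defines leukocytes, CD3E, CD79A and LYZ were not above background on either K1 array. Among 7 endothelial markers TIE1 alone was above background in K1, at 7.82 and 7.94. Of the 5 markers of thyroid C cells with a probe, only RET was above background on both arrays of a line, TPC1, at 7.96. CALCA and CALCB were above background on no untreated array, and CHGA and CHGB on no K1 array. Of 8 fibroblast markers COL1A1, COL1A2 and THY1 were above background on both K1 arrays, at 7.25, 7.09 and 8.86. COL3A1, DCN, LUM, PDGFRA and PDGFRB were above background on neither K1 array. TPC1 and BCPAP each had 3 of the 8 above background on both arrays.
Between 16004 and 20376 probes were above background on an array (detection p under 0.05), or 33.8% to 43.1% of all probes, with the lowest number on replicate 2 of untreated BCPAP. Values are log2 signals after quantile normalization, and the lowest signal that counted as above background was 6.85 to 6.95 on the untreated arrays. Signals of different probes are not comparable, so levels are compared between lines and not between genes. limma was run on 11846 genes, each above background on the 2 arrays of 1 or more untreated lines, and a gene is called at a Benjamini-Hochberg adjusted p under 0.05. The correlation of untreated duplicates, taken over genes and so not over independent replicates, was 0.997 in K1, 0.998 in TPC1 and 0.993 in BCPAP.

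K1 differed from the mean of the other lines at 5896 genes, 49.8% of those tested, with 2793 higher (23.6%) and 3103 lower (26.2%). Against TPC1 alone 5571 genes were called (47.0%) and against BCPAP alone 6739 (56.9%). The mean of unlike lines can hide opposite differences: for 1283 of the genes called against the mean, K1 lay above 1 line and below the other. A gene is therefore said here to set K1 apart only where it was called and differed at least 2-fold in the same direction against TPC1 and against BCPAP.
By this rule 269 genes (2.27%) set K1 apart, of which 210 were higher (1.77%) and 59 lower (0.498%). More higher than lower genes was not particular to K1. The same rule gave 248 higher and 100 lower genes for TPC1, and 248 and 229 for BCPAP. At 4-fold against each line 51 genes were higher and 8 lower, and at 8-fold 15 were higher and 0 lower. TPC1 was the nearer line for 107 of the higher genes and BCPAP for 103. Most of the higher genes, 176 of 210, differed by less than 2-fold between TPC1 and BCPAP, as did 39 of the 59 lower genes. The smallest difference of a higher gene from its nearer line was a log2 of 1.02, and the next gene outside the rule had 1.00. Of the genes tested, 547 entered only because K1 expressed them, and 39 of the 210 higher genes were among these and could only be higher. Among genes above background on all 6 arrays 126 were higher. Other probes of the same genes were also read. Of 85 for the higher genes, 79 had the same sign against both lines and 36 passed the rule on their own. Of 28 for the lower genes 23 and 7 did. These probes were read on the arrays that chose the genes, and those above background only in K1 could only be higher. The counts are therefore no independent check. Median centring gave 295 higher and 35 lower genes, and background correction by neqc gave 446 and 213.

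**Figure D1:**
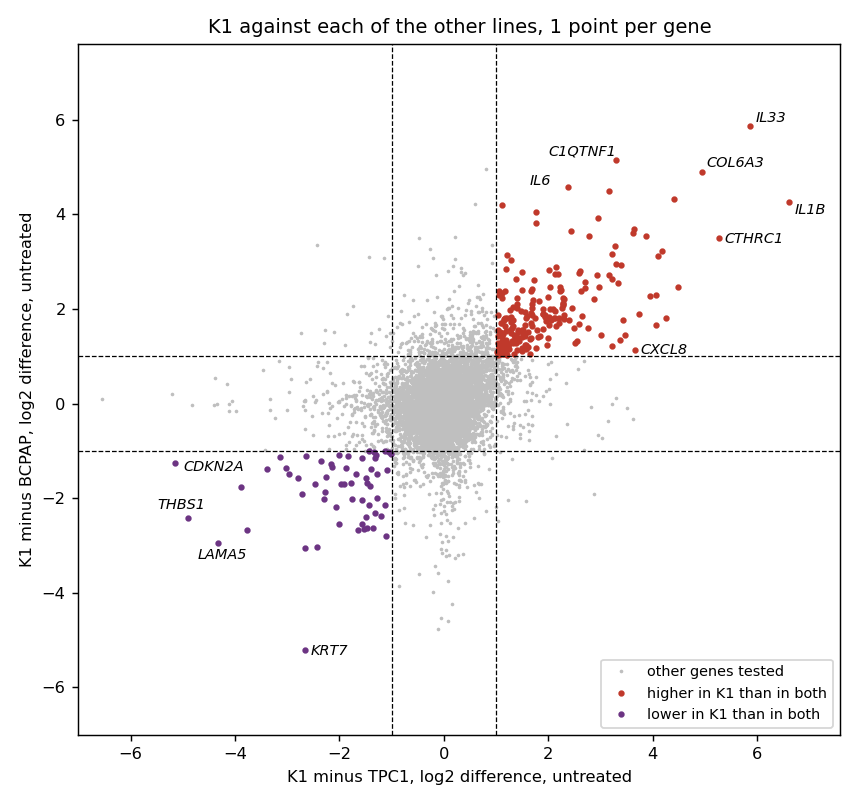
Log2 difference of untreated K1 from untreated TPC1 (x axis) and from untreated BCPAP (y axis), with 1 point per gene tested. Dashed lines mark 2-fold, and the genes higher in K1 than in both lines (upper right) outnumber those lower than in both (lower left), 210 to 59 in all.

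Among the 15 genes furthest above both lines were IL33, COL6A3, IL1B, IL1A, IL24 and CSF3. IL33, a nuclear cytokine of epithelial cells that is released on damage, had a log2 signal of 12.61 and 12.58 in K1, 6.73 and 6.71 in TPC1, and 6.78 and 6.69 in BCPAP. It was above background only in K1, and was at least 53.6-fold higher than in TPC1 and at least 51.2-fold higher than in BCPAP (adjusted p = 5.25e-13 against their mean from limma). A second probe of IL33 was not above background on both arrays of any untreated line, K1 included. Such a bound sets the mean of K1 against the lowest signal above background on the other line's arrays. COL6A3, a chain of collagen VI, had 11.81 and 11.76 in K1, 6.86 and 6.83 in TPC1, and 6.82 and 6.96 in BCPAP. That is a log2 difference of 4.92 from the mean of both lines (standard error 0.0664, adjusted p = 1.63e-12), and a second probe of COL6A3 was above background only in K1.
IL1B, the secreted interleukin 1 beta, had 13.62 and 13.53 in K1, 6.96 and 6.96 in TPC1, and 9.35 and 9.31 in BCPAP. The order K1 over BCPAP over TPC1 had no overlap, and K1 was 98.2-fold above TPC1 and 19-fold above BCPAP. Its neighbour on chromosome 2, IL1A, which encodes interleukin 1 alpha, had 11.36 and 11.22 in K1, 7.22 and 7.16 in TPC1, and 8.21 and 8.16 in BCPAP, so the lines stood in the same order. IL24, a cytokine of the interleukin 10 family, had 11.07 and 10.99 in K1, 6.84 and 6.85 in TPC1, where it was not above background, and 7.90 and 7.70 in BCPAP. CSF3, the granulocyte colony-stimulating factor, was above background only in K1, at 10.37 and 10.39, and was at least 11.6-fold higher than in TPC1 and at least 11-fold higher than in BCPAP.
G0S2, an inhibitor of the lipase that breaks down stored fat, had 12.40 and 12.33 in K1, 7.97 and 7.93 in TPC1, and 7.94 and 8.12 in BCPAP. LCP1, an actin-bundling protein typical of blood cells and of many cancer cells, had 10.70 and 10.79 in K1, 7.09 and 7.13 in TPC1, and 7.05 and 7.21 in BCPAP. These were differences of 4.37 and 3.62 from the mean of both lines (standard errors 0.0703 and 0.0696). CTHRC1, a secreted matrix protein, was 38.6-fold above TPC1 and 11.3-fold above BCPAP. FGFBP1, which carries fibroblast growth factors out of the matrix, was at least 12.7-fold higher than in TPC1 and 11.6-fold higher than in BCPAP. ANPEP, the aminopeptidase CD13, was above background only in K1, at 10.00 and 10.13, and was at least 9.3-fold and at least 8.87-fold higher. The others of the 15 furthest genes were C1QTNF1, a secreted relative of complement C1q, the GABA-B receptor subunit GABBR2, the arginine and lysine transporter SLC7A2, and GJB2, the gap junction protein connexin 26. Their differences from the nearer line were 3.30, 3.16, 3.16 and 2.96.
Among the 15 genes furthest below both lines were LAMA5, THBS1, COL8A1, KRT7 and KRT80. LAMA5, the alpha 5 chain of laminin, had 7.43 and 7.44 in K1, 11.78 and 11.72 in TPC1, and 10.35 and 10.39 in BCPAP. K1 was 20-fold below TPC1 and 7.66-fold below BCPAP (adjusted p = 9.68e-12 against their mean from limma). THBS1, the matrix glycoprotein thrombospondin 1, had 7.24 and 7.11 in K1, 12 and 12.12 in TPC1, and 9.80 and 9.36 in BCPAP, and COL8A1, a short-chain collagen, had 7.86 and 7.94 in K1, 11.75 and 11.59 in TPC1, and 10.57 and 10.58 in BCPAP. No K1 array overlapped another line for any of these.
KRT7, a keratin of simple epithelia, had 6.99 and 6.87 in K1, 9.56 and 9.62 in TPC1, and 12.07 and 12.21 in BCPAP. KRT80, its neighbour among the genes tested on chromosome 12, had 7.94 and 7.81 in K1, 10.44 and 10.61 in TPC1, and 11.04 and 10.82 in BCPAP. Keratins did not all move this way, since KRT19 was above background only in K1, at 8.20 and 8.02. HSPB1, the small heat shock protein HSP27, had 9.23 and 9.26 in K1, 12.08 and 11.83 in TPC1, and 11.10 and 11.24 in BCPAP. SERPINE2, an inhibitor of thrombin and urokinase, had 9.99 and 9.95 in K1, 12.31 and 12.20 in TPC1, and 11.92 and 11.75 in BCPAP.
The others of the 15 lowest genes were KCTD14, the lysosomal sulfatase SGSH, the secreted skin protein DMKN, the ribosomal protein gene RPL14, TRNP1, the methionine salvage enzyme MTAP, RASSF7 and the WNT co-receptor LRP5. KCTD14, DMKN and LRP5 were not above background on either K1 array, and were at least 5.31-fold, 3.89-fold and 3.03-fold lower than in the nearer line. For the others the difference from the nearer line lay between -2.06 for SGSH and -1.71 for RASSF7, and MTAP was above background on 1 K1 array. Other probes did not all bear out the largest differences. A second probe of RPL14 differed by 0.04 from TPC1 and by -0.85 from BCPAP, and a second probe of LRP5, near background in every line, by -0.24 and -0.10. The standard errors of all 30 genes against the mean ran from 0.0603 to 0.106.

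**Figure D2:**
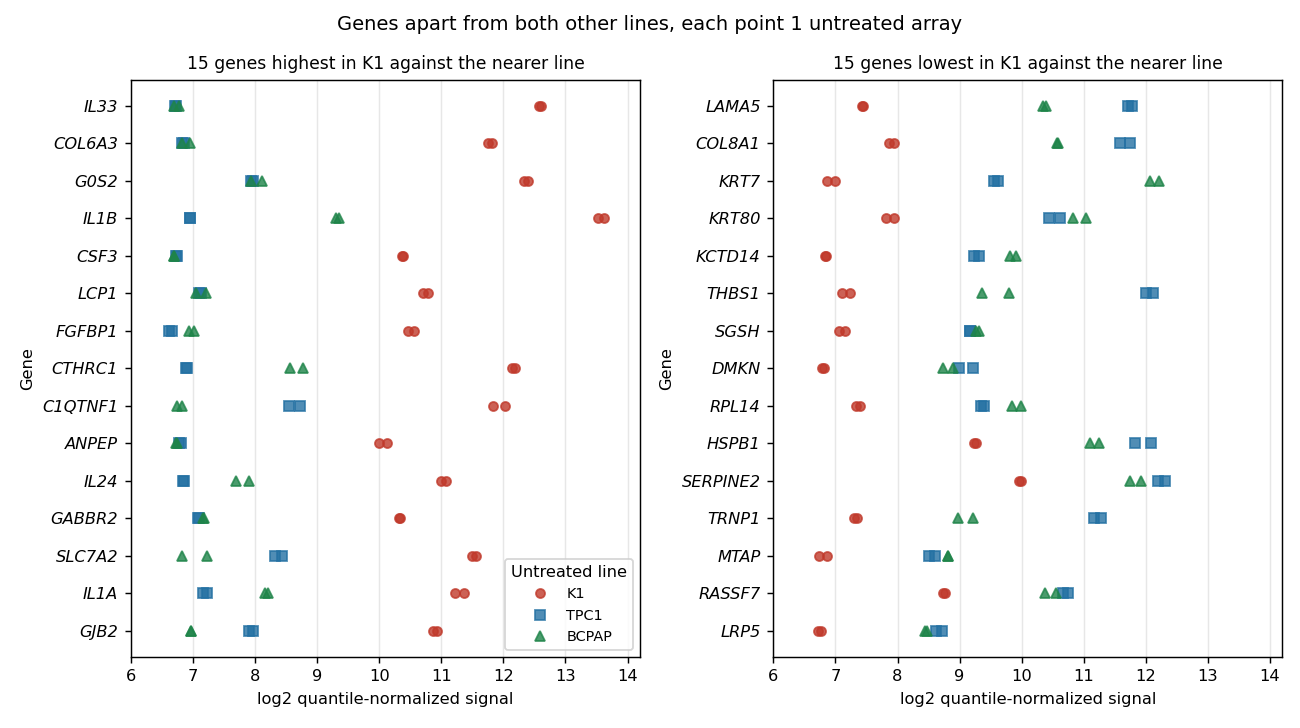
Log2 quantile-normalized signal of the 15 genes furthest above (left) and furthest below (right) both other lines, with 1 point per untreated array of K1 (circles), TPC1 (squares) and BCPAP (triangles). The K1 points lie clear of both other lines for all 30 genes, while TPC1 and BCPAP differ from each other for genes such as IL1B and THBS1.

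Several interleukins and chemokines lay far above both lines. Of 29 interleukins and receptors tested, 6 set K1 apart, all higher (20.7%, against 2.27% of all genes). Of 15 chemokines and their receptors 5 did, all higher (33.3%), as were 210 of all 269 genes apart. Among the 6 interleukins IL33 was tested only because K1 expressed it and could only be higher. Besides IL33, IL1B, IL24 and IL1A, the interleukins were IL11, at 9.98 and 9.93 in K1, 7.41 and 7.33 in TPC1, and 7.15 and 7.26 in BCPAP, and IL6, at 13.60 and 13.51 in K1, 11.24 and 11.08 in TPC1, and 8.94 and 9 in BCPAP. Both act through the gp130 receptor. The median of the interleukin list was 0.22 and that of the chemokine list 0.15, against -0.02 for all genes. Against the mean 15 of the interleukins and receptors were called higher (51.7%) and 9 lower (31.0%). Of the chemokines 7 were called higher (46.7%) and 4 lower (26.7%). Over all genes 23.6% were called higher and 26.2% lower. IL32 was lower than in TPC1, with a log2 difference of -2.33, and differed from BCPAP by -0.19.
CCL20, which attracts lymphocytes and dendritic cells, had 10.23 and 9.90 in K1, 6.78 and 6.75 in TPC1, where it was not above background, and 7.17 and 7.06 in BCPAP. CXCL2, a neutrophil chemokine, had 11.14 and 11.06 in K1, 8.43 and 8.20 in TPC1, and 7.56 and 7.56 in BCPAP. CXCL1 had 12.27 and 12.29 in K1, 8.98 and 8.92 in TPC1, and 9.54 and 9.90 in BCPAP. CXCL6 and CXCL8, which act on the same neutrophil receptors, exceeded the nearer line by 1.67 and 1.14. For CXCL8 the nearer line was BCPAP, at 12.54 and 12.48, against 13.67 and 13.62 in K1. CXCL8, CXCL6 and CXCL1 follow one another among the genes tested on chromosome 4. The monocyte chemokine CCL2 did not share this pattern, at 7.67 and 7.58 in K1, 10.71 and 10.86 in TPC1, and 6.70 and 6.77 in BCPAP.
Of 14 NF-kB feedback genes tested none set K1 apart, which at 2.27% of all genes is no result about the list, and against the mean 7 were called higher (50.0%, against 23.6% of all genes) and 2 lower (14.3%, against 26.2%). NFKBIA, the inhibitor that NF-kB induces, had 11.45 and 11.58 in K1, 10.83 and 10.95 in TPC1, and 10.90 and 11.09 in BCPAP, a difference of 0.57 from their mean (adjusted p = 9.71e-05 from limma). PTGES, which makes prostaglandin E, had 11.22 and 11.24 in K1, 6.74 and 6.76 in TPC1, and 8.82 and 8.71 in BCPAP, and so stood in the order of IL1B. CD14, a receptor for bacterial lipopolysaccharide, had 9.38 and 9.46 in K1, 7.22 and 7.23 in TPC1, and 7.46 and 7.79 in BCPAP. CD14 is also a marker of monocytes, and PTPRC was not above background in any line.
The promoters of the 6 interleukins and 5 chemokines were searched for an NF-kB motif (GGGA, any 2 bases, then TTCC) and an AP-1 motif (TGAGTCA) on both strands of the 250 bases before the start. IL6, CXCL1, CXCL2 and CXCL6 held the NF-kB motif and IL1A, IL11 and CXCL8 the AP-1 motif. Of 27305 promoters in the same RefSeq set 1.42% held the first and 4.16% the second. The 4 promoters shown are those that held the NF-kB motif, and every gene searched had been chosen for lying above both lines. CXCL1, CXCL2 and CXCL6 hold the same stretch, so their matches are not independent. The shares over all promoters are given as background and were not tested. Sequences are from RefSeq, build GRCh38.p14, and capitals mark the motif, which in the CXCL genes is 2 overlapping matches on opposite strands. A match describes the sequence and not binding.
CXCL1, chr4:73869143-73869392, plus strand: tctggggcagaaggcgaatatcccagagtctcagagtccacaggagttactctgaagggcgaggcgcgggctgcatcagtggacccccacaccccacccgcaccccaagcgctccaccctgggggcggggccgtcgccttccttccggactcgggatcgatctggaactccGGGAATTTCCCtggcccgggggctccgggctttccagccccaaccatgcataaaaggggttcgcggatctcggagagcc
CXCL2, chr4:74099196-74099445, minus strand: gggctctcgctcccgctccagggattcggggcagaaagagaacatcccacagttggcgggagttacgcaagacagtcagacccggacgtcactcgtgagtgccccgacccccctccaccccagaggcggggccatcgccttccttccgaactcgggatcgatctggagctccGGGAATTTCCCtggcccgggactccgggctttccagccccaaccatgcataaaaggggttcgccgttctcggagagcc
CXCL6, chr4:73836428-73836677, plus strand: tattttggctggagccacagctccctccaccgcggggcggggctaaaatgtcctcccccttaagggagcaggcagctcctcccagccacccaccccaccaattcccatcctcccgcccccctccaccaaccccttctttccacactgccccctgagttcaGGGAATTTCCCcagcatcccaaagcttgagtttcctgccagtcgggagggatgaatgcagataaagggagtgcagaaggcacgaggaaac
IL6, chr7:22726950-22727199, plus strand: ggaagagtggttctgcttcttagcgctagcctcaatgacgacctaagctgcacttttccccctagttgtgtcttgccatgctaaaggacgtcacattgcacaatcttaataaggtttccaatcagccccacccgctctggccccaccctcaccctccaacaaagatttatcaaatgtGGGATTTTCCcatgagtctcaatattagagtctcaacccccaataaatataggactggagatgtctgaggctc
The run of capitals was the same in CXCL1, CXCL2 and CXCL6 and began 79, 78 and 90 bases before the start, and in IL6 73 bases before it. A comparison of motif shares between all genes apart and the rest was void, because only 72.1% of the higher and 72.9% of the lower genes named here had a promoter in the table.

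**Figure D3:**
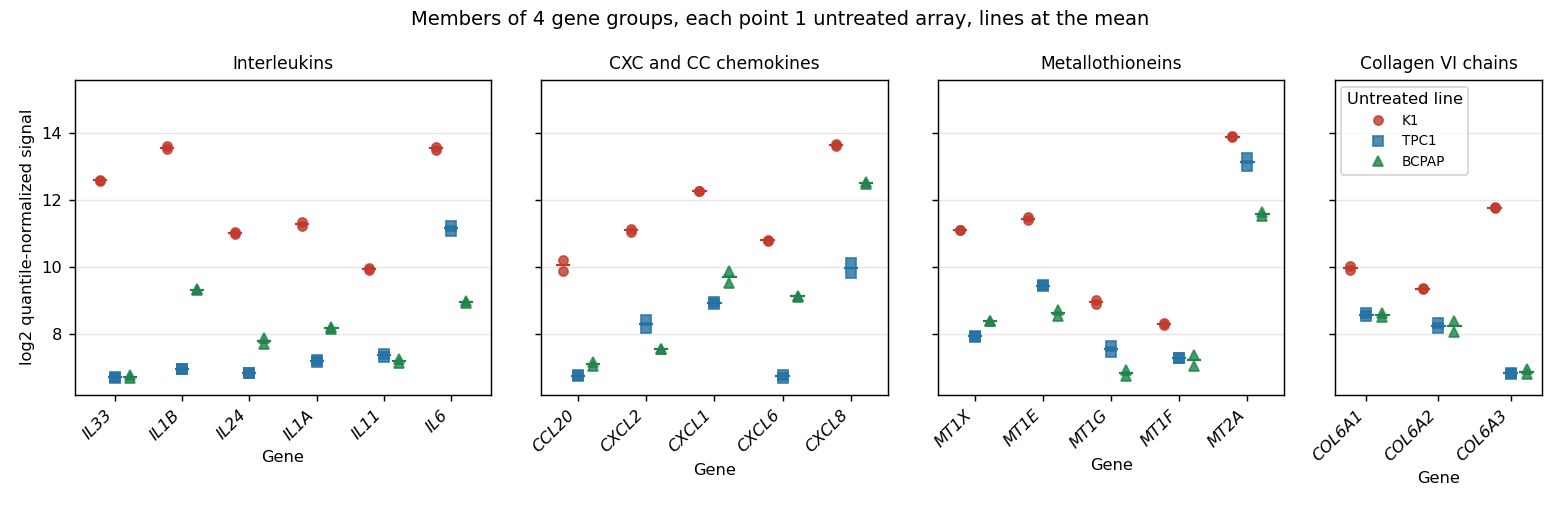
Log2 quantile-normalized signal of interleukins, chemokines, metallothioneins and collagen VI chains, with K1, TPC1 and BCPAP from left to right for each gene, 1 point per untreated array and a short line at the mean. All genes shown set K1 apart from both lines except MT2A, whose K1 arrays at 13.91 and 13.90 were less than 2-fold above those of TPC1.

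Metallothioneins, small proteins that bind zinc and copper, had the highest share of any list with at least 5 genes tested. Of 7 tested, 4 set K1 apart (57.1%), and the list's median was 1.54 with quantile normalization, 1.65 with median centring and 1.90 with neqc. MT1X had 11.11 and 11.12 in K1, 7.93 and 7.96 in TPC1, and 8.39 and 8.40 in BCPAP, and MT1E had 11.49 and 11.42 in K1, 9.44 and 9.46 in TPC1, and 8.73 and 8.55 in BCPAP. MT1G and MT1F exceeded the nearer line by 1.40 and 1.02. These 4 genes are neighbours on chromosome 16 and near-identical in sequence, so probes of one may also take up RNA of another.
Matrix genes moved both ways. All 3 chains of the classical collagen VI trimer were higher in K1, with COL6A1 at 10.05 and 9.92, against 8.54 and 8.63 in TPC1 and 8.63 and 8.53 in BCPAP, and COL6A2 at 9.35 and 9.38, against 8.19 and 8.33 in TPC1 and 8.07 and 8.41 in BCPAP. Another probe of COL6A2 differed by 1.02 from TPC1 and by 1.10 from BCPAP, and a dimmer one, near background in every line, by 0.09 and -0.01. Of 20 collagens tested 9 were called higher (45%, against 23.6% of all genes) and 7 lower (35%, against 26.2%) than the mean. Median centring called 8 higher and 1 lower, beside 1398 and 359 of all 11846 genes. The thrombospondins split: THBS2 had 8.89 and 8.88 in K1, 6.59 and 6.64 in TPC1, and 6.99 and 6.73 in BCPAP, whereas THBS1 was lower in K1 as given above. EFEMP1, a secreted matrix protein, exceeded the nearer line by 1.59, and MXRA5, another, was at least 3.49-fold higher than in BCPAP, where it was not above background, and 3.77-fold higher than in TPC1. FN1, fibronectin, had 9.76 and 9.84 in K1, 8.07 and 8.06 in TPC1, and 7.45 and 6.91 in BCPAP. PLAUR, the urokinase receptor, exceeded the nearer line by 1.23.
Markers of epithelial and mesenchymal state did not line up on one side. SNAI2, a repressor of epithelial genes, had 10.77 and 10.77 in K1, 8.01 and 7.79 in TPC1, and 8.56 and 8.55 in BCPAP. TAGLN, the smooth muscle actin-binding protein transgelin, was lower in K1, at 9.31 and 9.40, against 11.49 and 11.54 in TPC1 and 10.54 and 10.72 in BCPAP. Of 18 epithelial genes 4 were called higher (22.2%, against 23.6% of all genes) and 12 lower (66.7%, against 26.2%) than the mean, with a median of -0.40. Of 23 mesenchymal genes 8 were called higher and 8 lower (34.8% each). With median centring 2 of the epithelial genes were called higher and 6 lower with a median of -0.22, and 7 of the mesenchymal genes higher and 2 lower. Over all 11846 genes that setting called 1398 higher and 359 lower, with a median of 0.16. VIM, the intermediate filament vimentin, had 13.73 and 13.63 in K1, 13.60 and 13.63 in TPC1, and 13.13 and 13.14 in BCPAP.
Of 30 growth factor ligands tested 4 set K1 apart, all higher (13.3%, against 2.27% of all genes), as were 210 of all 269 genes apart. Of these 4, CSF3 and FGFBP1 were tested only because K1 expressed them and could only be higher. In the whole list 10 were called higher than the mean (33.3%, against 23.6% of all genes) and 7 lower (23.3%, against 26.2%). The list's median was 0.05. VEGFA, which drives vessel growth, had 9.56 and 9.55 in K1, 7.62 and 7.61 in TPC1, and 7.62 and 7.84 in BCPAP, and NRG1, a ligand of the ERBB receptors, exceeded the nearer line by 1.07. LIF, a cytokine of the interleukin 6 family that also served as a MAPK output gene, had 9.29 and 9.28 in K1, 7.55 and 7.64 in TPC1, and 7.22 and 7.16 in BCPAP. Its list of 28 MAPK output and feedback genes had 14 called higher (50.0%, against 23.6% of all genes) and 4 lower (14.3%, against 26.2%). Median centring called 8 of the list higher and 0 lower, beside 1398 and 359 of all 11846 genes. FOS, an immediate early transcription factor, was the other member apart, at 9.76 and 9 in K1, 7.35 and 7.10 in TPC1, and 7.81 and 7.66 in BCPAP. BMP2, and GREM1, which binds and blocks it, exceeded the nearer line by 1.59 and 1.34, and WNT5A by 1.11, while LRP5 was lower. A second, dimmer probe of GREM1, above background only in K1, differed by 0.34 from TPC1 and by 0.29 from BCPAP. PIK3R1, the regulatory subunit of PI 3-kinase, exceeded the nearer line by 1.12. It was the only 1 of 28 genes of PI3K and mTOR signalling apart (3.57%, against 2.27% of all genes), which is no result about the list. Against the mean 6 of the list were called higher and 6 lower (21.4% each), with a median of -0.06. Other probes of PIK3R1 and SLC7A2 were not above background on both arrays of any untreated line. A second probe of NRG1, above background in every line, differed by 0.17 from TPC1 and by -0.23 from BCPAP. That probe did not set K1 apart.
Of 29 genes of FAK and focal adhesions none set K1 apart and none of 15 integrins did, which at 2.27% of all genes is no result about these lists. With median centring 1 gene of each list was higher than in both lines, beside 295 of all 11846 genes. Against the mean 11 of the FAK and focal adhesion genes were called higher (37.9%) and 7 lower (24.1%), and 6 of the integrins higher (40.0%) and 4 lower (26.7%), beside 23.6% and 26.2% of all genes. PTK2, which encodes FAK itself, had 11.36 and 11.28 in K1, 11.23 and 11.12 in TPC1, and 10.29 and 10.05 in BCPAP. It was called against BCPAP (log2 difference 1.15, adjusted p = 1.07e-06 from limma) and not against TPC1 (0.15, adjusted p = 0.212). A second, dimmer probe of PTK2 differed by 0.43 from TPC1 (adjusted p = 0.00089) and by 0.31 from BCPAP (0.00487) in a limma fit over all probes above background, and so gave another order. The related kinase gene PTK2B had 7.49 and 7.49 in K1, 7.22 and 7.42 in TPC1, and 7.07 and 7.28 in BCPAP.
Interferon-stimulated genes, the antiviral effectors, tended to lie below the other lines. Of 42 tested, 27 were called lower (64.3%, against 26.2% of all genes) and 7 higher, with a median of -0.33. With Y15 32 were called lower and 3 higher, with a median of -0.66. Over all 11846 genes 2108 were called lower and 1864 higher with Y15. The list's median with Y15 was not split by line. The study lists MX1, IRF7, IRF9 and ISG15 among the genes that Y15 raised specifically in BCPAP. Whether this widened the difference was not tested. The untreated shift was mainly against BCPAP, where the median was -0.46, and was -0.08 against TPC1. With median centring, which moved the median of all genes to 0.16, the list's median was -0.15 and 4 members were called lower and 5 higher. Over all 11846 genes that setting called 359 lower and 1398 higher. IFITM2 had 10.21 and 10.48 in K1, 11.65 and 11.74 in TPC1, and 12.89 and 13.09 in BCPAP, and IFITM3 was lower than in both lines as well. These membrane proteins that block virus entry are near-identical, so their probes may share RNA. TRIM22, an antiviral ubiquitin ligase, went the other way, at 8.72 and 8.69 in K1, 6.95 and 7.08 in TPC1, and 6.75 and 6.63 in BCPAP.
Of 26 p53 target genes 18 were called higher (69.2%, against 23.6% of all genes) and 2 lower, with a median of 0.32. Median centring called 10 higher and 0 lower, beside 1398 and 359 of all 11846 genes. With Y15 5 of the p53 targets were called higher and 2 lower than the mean, with a median of 0.06. Over all 11846 genes 1864 were called higher and 2108 lower with Y15. SPATA18 was above background only in K1, at 8.33 and 8.25, and RRM2B, a subunit of ribonucleotide reductase, exceeded the nearer line by 1.21. A second, dimmer probe of RRM2B, above background only in K1, differed by 0.32 from TPC1 and by 0.49 from BCPAP. In the G1 list CDKN2A, which encodes the cell cycle inhibitors p16 and ARF, was not above background in K1, at 6.70 and 6.62, against 10.08 and 10.01 in TPC1 and 8.12 and 7.97 in BCPAP. MTAP, which lies beside CDKN2A on chromosome 9, had 6.87 and 6.74 in K1, 8.60 and 8.51 in TPC1, and 8.82 and 8.81 in BCPAP. CDKN2B, on the other side of CDKN2A, had 6.78 and 6.76 in K1, 7.81 and 7.67 in TPC1, and 7.21 and 7.19 in BCPAP. The K1 arrays were the lowest at all 3 genes. A second probe of CDKN2A, above background on 1 K1 array, differed by -1.66 from TPC1 and by -0.58 from BCPAP.
Of 45 transcription factors of development 4 set K1 apart, all higher (8.89%, against 2.27% of all genes). Among these SOX17 was tested only because K1 expressed it and could only be higher. Against the mean 22 of the list were called higher (48.9%, against 23.6% of all genes) and 6 lower (13.3%, against 26.2%). RUNX3 had 9.23 and 9.19 in K1, 6.96 and 6.90 in TPC1, and 6.96 and 7 in BCPAP, and FOXQ1 and DLX1 exceeded the nearer line by 2.00 and 1.81. A second, dimmer probe of DLX1 differed by 0.30 from TPC1 and by 0.31 from BCPAP. SOX17 was above background only in K1, at 8.48 and 8.53, and was at least 3.15-fold higher than in TPC1 and at least 3.01-fold higher than in BCPAP. ALDH1A3, a retinal dehydrogenase used as a stem cell marker, had 13.37 and 13.36 in K1, 11.01 and 10.84 in TPC1, and 9.82 and 9.62 in BCPAP, whereas the surface marker CD24 had 11.01 and 11.23 in K1, 13.80 and 13.70 in TPC1, and 12.27 and 12.20 in BCPAP. STMN3, a neuronal relative of stathmin, exceeded the nearer line by 2.92. TFPI2 and THBD, which act against coagulation, exceeded it by 2.29 and 2.61. GAGE12J, of a near-identical family of cancer-testis antigens on chromosome X whose probes may share RNA, exceeded it by 1.96.

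The share of genes apart differed between chromosomes. Chromosome 8 held 22 higher and 0 lower genes among 440 tested (5%, against 2.27% of all genes), including CTHRC1, SLC7A2, SNAI2, SOX17 and RRM2B. Against the mean of both lines 240 of the 440 genes (54.5%) were called higher and 47 (10.7%) lower, beside 23.6% and 26.2% of all genes. Their median was 0.22. The median was 0.07 against TPC1 and 0.37 against BCPAP, so the larger part was against BCPAP. With Y15 it was 0.21, with median centring 0.38 and with neqc 0.41. Chromosome 13 came next with a median of 0.12, from -0.03 against TPC1 and 0.31 against BCPAP. Chromosome 20 had the lowest median, at -0.14, from 0.01 against TPC1 and -0.19 against BCPAP. With median centring and with neqc chromosome 18 was the lowest, at -0.01 and -0.28. These counts carry no test.

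**Figure D4:**
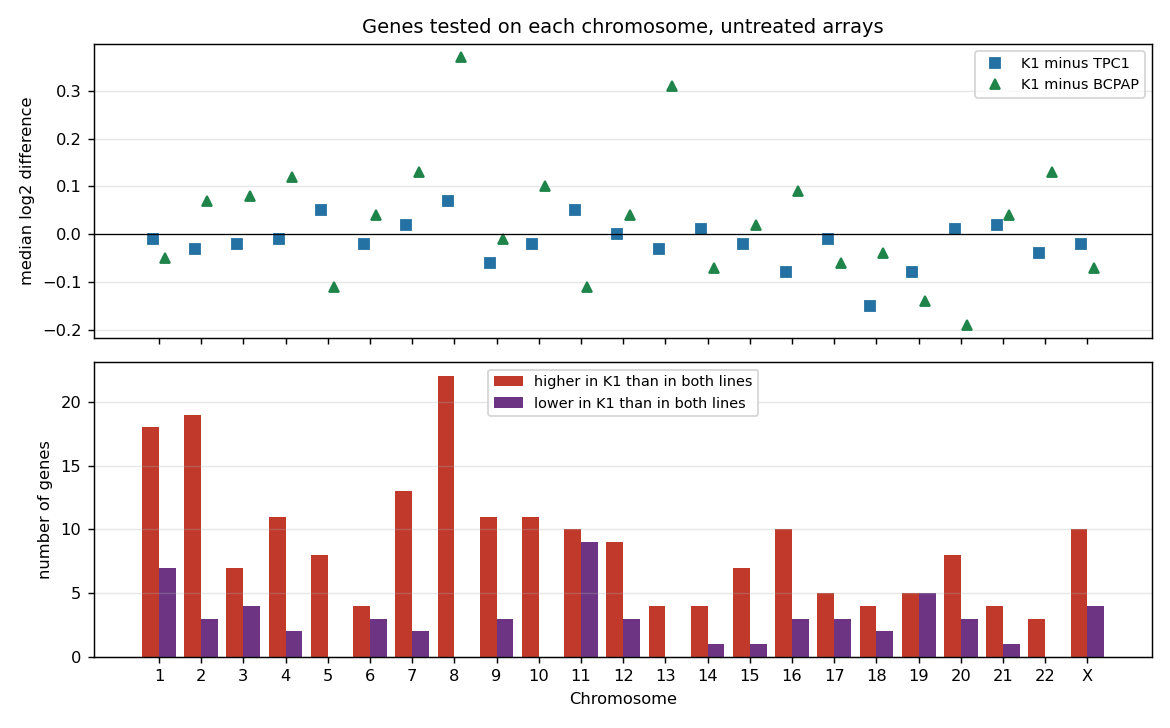
Upper panel: median log2 difference of untreated K1 from TPC1 (squares) and from BCPAP (triangles) over the genes tested on each chromosome. Lower panel: number of genes higher (left bar) or lower (right bar) in K1 than in both lines, where chromosome 8 has 22 and 0.

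The Y15 arrays gave the same comparison in samples that were not used to pick the genes. The lines and their media were the same and all 12 arrays were normalized together. The comparison therefore repeats the line difference under treatment and is no independent check. With Y15 K1 was apart at 217 genes (1.83%), 164 higher (1.38%) and 53 lower (0.447%). Of the 210 genes higher in untreated K1, 132 were apart with Y15 as well, 62.9% of the untreated and 80.5% of the Y15 list. Of the 59 lower genes 32 were, 54.2% of the untreated and 60.4% of the Y15 list, and 0 were apart in the opposite direction. For 208 of the 210 higher and 58 of the 59 lower genes K1 lay on the same side of both lines. The median difference from the nearer line was 1.21 with Y15 and 1.49 untreated for the higher genes, and -1.14 with Y15 and -1.44 untreated for the lower genes. The genes had been chosen by a threshold on the untreated arrays. The Y15 duplicates of K1 were also less alike, with a correlation of 0.978 and 163 genes over 2-fold apart.
The difference of K1 from the mean of the other lines itself changed with Y15 at 632 genes (5.34%, limma over 12 arrays), among them 73 of the higher genes, 63 toward zero, and 22 of the lower genes, 21 toward zero. With 1 array left out the count over all genes ran from 179 without K1 untreated replicate 1 to 1814 without K1 Y15 replicate 1, and was 1708 without K1 Y15 replicate 2. The arrays that stood apart between conditions were those of K1 for some genes and those of another line for others. FGFBP1 was at 8.38 and 8.09 in K1 with Y15 and at 10.56 and 10.47 in untreated K1, and with Y15 it was at 6.63 and 6.68 in TPC1 and 6.82 and 6.89 in BCPAP. LCP1 was at 10.69 and 10.53 in K1 with Y15 and at 10.70 and 10.79 in untreated K1, but at 9.59 and 9.63 in TPC1 with Y15 and at 7.09 and 7.13 in untreated TPC1. THBS1 was at 7.02 and 7.11 in K1 with Y15 and at 9.92 and 9.76 in TPC1 with Y15, against 12 and 12.12 in untreated TPC1. IL33 remained above background only in K1, at 11.74 and 12.19 with Y15. CSF3 had 11.75 and 10.76 in K1 with Y15 and 10.37 and 10.39 untreated, and was above background with Y15 on 1 TPC1 array and no BCPAP array. All 6 interleukins and 4 of the 5 chemokines were apart with Y15 too.

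**Figure D5:**
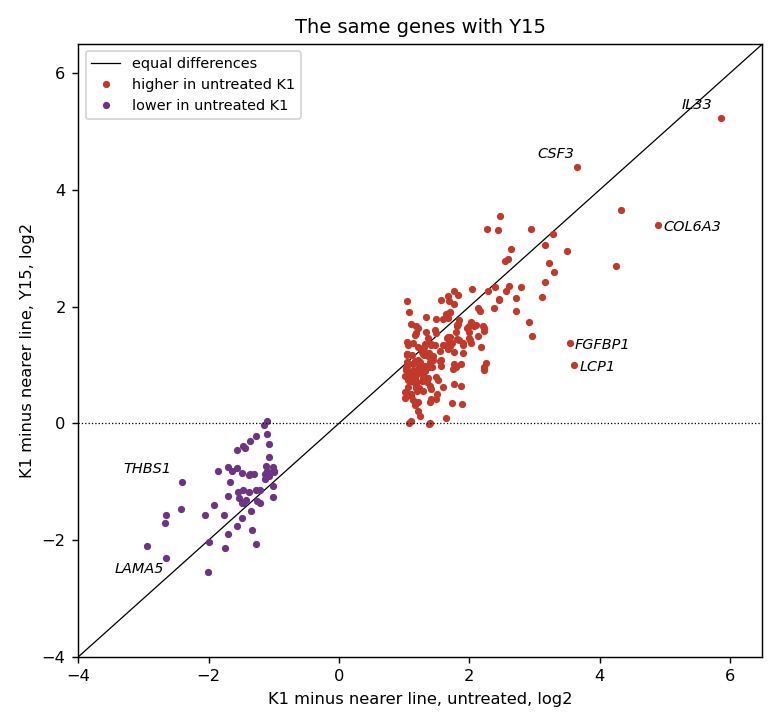
Log2 difference of K1 from the nearer of TPC1 and BCPAP, untreated (x axis) and with Y15 (y axis), for the genes apart in untreated cells. Points below the diagonal on the right, such as FGFBP1 and LCP1, and above it on the left, such as THBS1, were closer to the other lines with Y15.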

How the data were processed

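Total RNA of 12 samples of 3 cell lines was labelled and hybridised to Illumina bead arrays of 47323 probes. The authors deposited signal intensity and detection p-values for each probe, exported with GenomeStudio (version not given in the sources used here), and log2 values after quantile normalization. Those log2 values equal quantile normalization of log2 signal over the 12 arrays (largest difference 5e-09), which was used here. The chip and scan of each array are not given in the sources used here. Probe genes came from the platform annotation: 30109 probes had 1 gene, 8 several and 17194 none, and 12 probes lacked a signal. A gene is its brightest probe that passed detection on the 2 arrays of any untreated line. Lines were compared with limma 3.58.1 (R 4.3.3) on the 6 untreated arrays, 3 residual degrees of freedom, two-sided, with Benjamini-Hochberg adjustment over 11846 genes. Arrays number 2 a line, which limits the precision. Named are the 15 genes with the largest difference from the nearer line in each direction, up to 4 per list and direction, fixed markers, and IL6, IL11, IL32, CXCL8, CCL2, NFKBIA, MT2A and CDKN2B, picked after their values were seen. Members and lists were chosen with earlier results of these data known. The fit was tested on simulated data. Alternatives were median centring, neqc, other filters, probes, thresholds and arrays left out. Genes of chromosome Y are not named.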

Additional observations from a re-analysis of the deposited data

Results flagged for a closer look

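The difference of K1 from the mean of TPC1 and BCPAP was itself different with Y15 for 14 of the 30 genes furthest from both lines, by the interaction term of limma over 12 arrays. For the higher genes the change of the log2 difference, Y15 minus untreated, was -0.64 for IL33 (adjusted p = 0.0295), -1.52 for COL6A3 (0.00133), -0.82 for IL1B (0.000429), -1.74 for LCP1 (9.47e-06) and -2.23 for FGFBP1 (3.27e-06). It was -0.85 for CTHRC1 (0.0057), -1.05 for IL1A (0.00178) and -1.40 for GJB2 (0.000288). For the lower genes it was 0.97 for LAMA5 (0.00226), 0.57 for COL8A1 (0.0296), 0.58 for KCTD14 (0.0124), 1.76 for THBS1 (0.000226), 0.65 for RASSF7 (0.0166) and 0.51 for LRP5 (0.0184). All 14 were toward zero. The genes had been picked for a large untreated difference. IL1A was higher with Y15 in every line, at 12.07 and 11.70 in K1, 8.96 and 8.92 in TPC1, and 9.66 and 9.78 in BCPAP, against 11.36 and 11.22 in untreated K1, 7.22 and 7.16 in untreated TPC1, and 8.21 and 8.16 in untreated BCPAP. The array of K1 with Y15 replicate 1 differed over 2-fold from untreated K1 at 268 genes and that of replicate 2 at 35.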

How the results depend on the processing

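The 30 genes with the largest differences kept their direction and their call against the mean of both lines in all 438 values computed under 15 settings. They had been picked as the most extreme in these same arrays, so little else could come out. Those not above background on all 6 arrays, IL33 among them, had no value in that setting. Median centring lowered the counts of called genes: against the mean of both lines 1398 were higher and 359 lower (2793 and 3103 with quantile normalization), 1490 were called against TPC1 and 3974 against BCPAP, and 35 were lower than in both lines. The change of the K1 difference with Y15 was then called at 74 genes. It moved the median of tested genes to 0.16, and the cause was not tested. With neqc 446 genes were higher and 213 lower than in both lines. With no minimum on the fold 1433 and 1066 were, with 4-fold 51 and 8, and with genes above background on all 6 arrays 126 were higher. Leaving out each array in turn gave 205 to 217 higher and 56 to 62 lower genes untreated, 158 to 207 and 49 to 81 with Y15, and 179 to 1814 genes for the change with Y15, where the extremes came without K1 untreated replicate 1 and without K1 Y15 replicate 1.
Same-numbered replicates deviated from their group means with correlations of 0.0352, 0.111 and 0.12, and nothing in the labels pairs them, so the number is not a pairing. With the replicate number as a block 210 genes were higher and 59 lower than in both lines, and 2890 and 3236 against the mean.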
